A study of Drosophila melanogaster with 2 samples.

Results

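Mitochondrial ribosomal protein genes were taken as the protein-coding genes of the dm6 annotation whose symbol begins with mRpL or mRpS. The letters L and S stand for the large and the small subunit, and the place of each protein in the ribosome was not checked. The rule found 73 of 13968 protein-coding genes, 47 mRpL and 26 mRpS. It used names only and no measured value. Binding of Kahuli (Kah) was measured by ChIP-seq, which sequences the DNA fragments recovered with an antibody against a chromatin-bound protein, in intact embryos of *Drosophila melanogaster*, male and female together, aged 0 to 16 h. The embryos came from a transgenic line that stably expresses Kah with green fluorescent protein at its C-terminus. There was 1 group of 2 biological replicates, with no other genotype, treatment or time, so genes were compared with genes, and neither genes nor peaks are replicates of the embryos. The labels give the assay as transcription factor ChIP-seq against kah, while the free text of both libraries calls them an input control. The values were read as Kah ChIP-seq, as the file listing has them.

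Mitochondrial ribosomal proteins are encoded in the nucleus, made in the cytosol and imported into mitochondria. There they build the ribosome that translates the few respiratory chain subunits encoded by mitochondrial DNA. Some of its proteins have a counterpart in bacterial ribosomes, and others belong to families found in mitochondria. Kah is a zinc finger transcription factor of the Snail family, whose members bind E-box sequences with the core CAGGTG.

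The authors listed 30000 candidate peaks for each replicate and 30000 for both replicates together (pooled). The pooled list is labelled as peaks and background together, so a weak candidate in it need not be binding. Of the pooled candidates, 4105 passed a cutoff on the irreproducible discovery rate (IDR), which scores whether a peak holds its rank between replicates. Peak signal is the value given by the authors' peak caller on its own scale. IDR peaks began at a signal of 149.7, just above the strongest candidate left out at 149.6. Read depth is unknown, since the lists hold no read counts. A gene was said to have a promoter candidate or a promoter IDR peak where the summit lay within 500 bp of any of its transcription start sites (TSSs). The 95% intervals given with shares are exact (Clopper-Pearson) and take in counting error alone.

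Most mitochondrial ribosomal protein genes had a promoter candidate, and few had a strong peak. A pooled promoter candidate was present at 59 of the 73 genes (80.8%), against 53.4% of all protein-coding genes. A candidate was present in both replicate lists at 50 of the 73 (68.5%), against 44.4% of all protein-coding genes. An IDR promoter peak was present at 12 of the 73 (16.4%, 8.79 to 27.0%), against 17.0% of all protein-coding genes, so the share with a strong peak lay at the background. Among genes that had a candidate, the share with an IDR peak was 12 of 59 (20.3%, 11.0 to 32.8%) for mitochondrial ribosomal protein genes and 31.8% for all protein-coding genes, just inside the interval.

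Signal over the 59 genes was spread over a wide range with a low centre. The strongest pooled promoter candidate had a median signal of 95.5 (34.9 to 1869), against a median of 101 (34.1 to 5020) over the 7461 protein-coding genes with a candidate. The 12 genes with an IDR peak had a median of 620 (224 to 1869), against 257 for all 2375 genes with an IDR promoter peak. Between them and the remaining genes lay an empty stretch. The weakest gene with an IDR peak, mRpS18B, had 224 and the strongest without, mRpS21, had 140.2, although the threshold stood at 149.7. The other 47 genes had a median of 84.4, and 16 of them reached 100 or more.

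**Figure D1:**
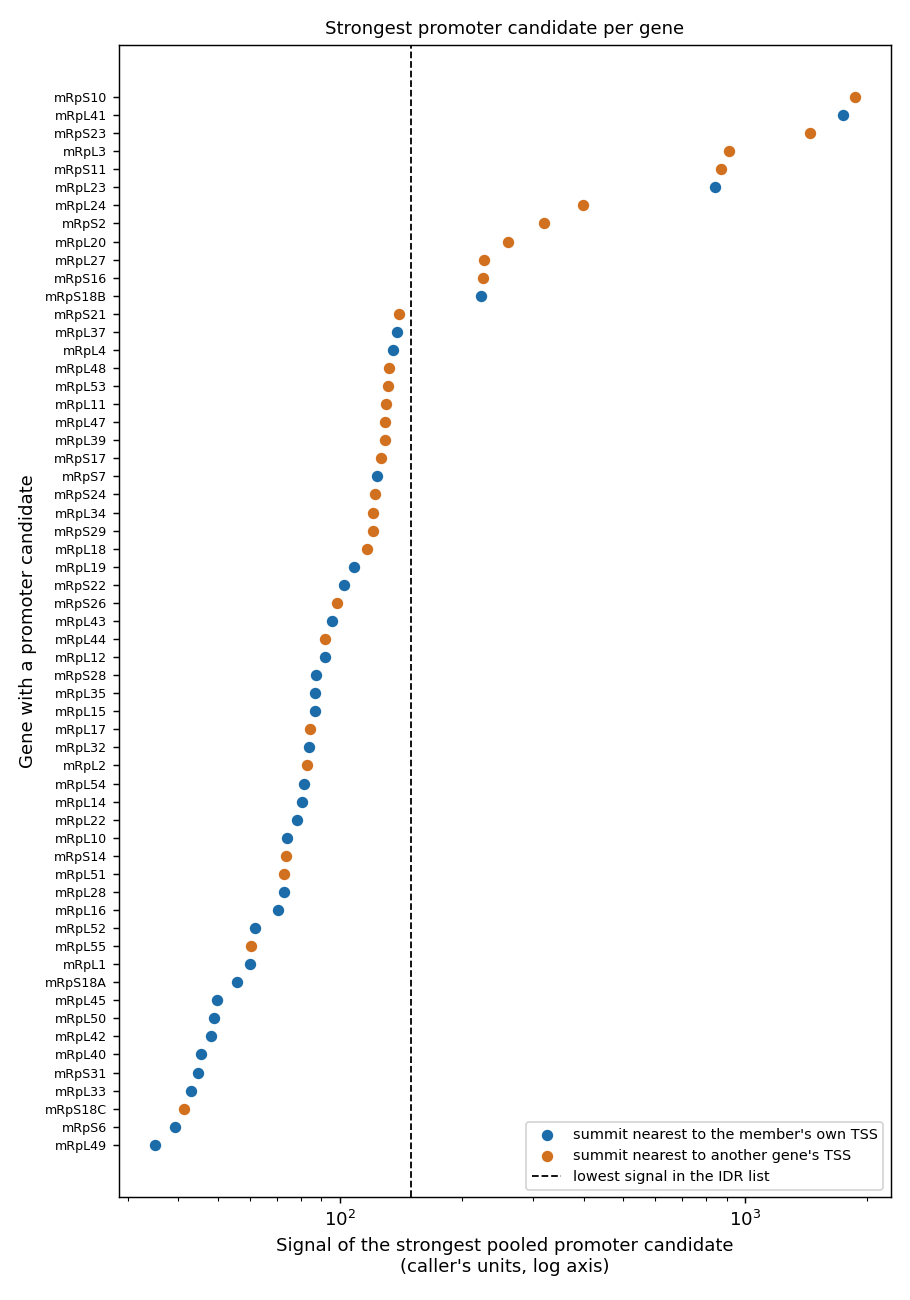
Signal of the strongest pooled promoter candidate (caller's units, log axis) for each of the 59 mitochondrial ribosomal protein genes that had one, coloured by whether the summit lay nearest to the gene's own TSS or to another gene's. 12 genes lie above the lowest IDR signal of 149.7 (dashed line), 9 of them with the summit nearest to another gene's TSS.

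Most of these genes share their promoter with a neighbour. Another protein-coding gene had a TSS within 500 bp at 54 of the 73 (74.0%), against 30.8% of all protein-coding genes. In 52 of the 73 (71.2%) the nearest neighbour was transcribed away from the gene, in the head-to-head arrangement, against 25.2% of all protein-coding genes. The other 2 neighbours, CG33155 at mRpL53 and CG10602 at mRpL13, lie on the same strand with a shared TSS. Of the 54 genes with a neighbouring TSS, 10 had an IDR peak (18.5%, 9.25 to 31.4%), against 28.3% of all protein-coding genes with a neighbour. Of the 19 genes without a neighbouring TSS, 2 had an IDR peak (10.5%, 1.30 to 33.1%), against 12% of all protein-coding genes without one. Of these 2, mRpL3 has the TSS of Graf at 515 bp, just outside the limit, and its stronger summit lay 113 bp from Graf. The other, mRpL41, had no other gene's TSS within 500 bp of its summit. The share over all protein-coding genes lay within the interval in both classes.

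Among the mRpS genes, 6 of 26 (23.1%, 8.97 to 43.6%) had an IDR promoter peak. The strongest of the whole set was at mRpS10, the counterpart of bacterial S10, with a pooled signal of 1869, 1037 in replicate 1 and 836 in replicate 2. This interval, chr3R:15229365-15229712, ranked 30 of the 30000 pooled candidates. Its summit was intergenic, 139 bp from the mRpS10 TSS and 118 bp from that of Art3, an arginine methyltransferase gene. At mRpS23, of a mitochondrial family, the signal was 1445, with 722 and 725 in replicates 1 and 2. The summit in chr2L:13835300-13835631 lay 402 bp upstream of mRpS23 and 90 bp from CenG1A, which encodes a regulator of Arf GTPases, so the peak sits at the neighbour's end of the shared region. At mRpS11 the signal was 873, with 481 and 392 in the replicates. Its summit in chr3R:17072553-17072891 fell between TSSs only 57 bp apart, 30 bp from mRpS11 and 27 bp from Ns1, a nucleostemin gene whose product acts in the nucleolus. A difference of this size does not assign the peak to either gene.

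The other peaks at mRpS genes were weaker. At mRpS2 the pooled signal was 320, with 206 and 127 in replicates 1 and 2, in chr2L:4850446-4850674. The pooled summit was 147 bp from mRpS2 and 75 bp from Mon1, which encodes a factor of endosome maturation. The replicates placed it on opposite sides of the midpoint, since the replicate 1 summit was 36 bp from Mon1 and the replicate 2 summit 49 bp from mRpS2. At mRpS16 the signal was 225, with 83.6 and 137 in the replicates, in chr2R:14173511-14173934. Its summit was 30 bp from the TSS of combgap (cg), a zinc finger gene, within the 5' UTR of cg and 127 bp from mRpS16. At mRpS18B, among the variants of the S18 protein, the signal was 224, with 94.2 and 131 in the replicates, in chr2L:20097113-20097536. This summit lay 72 bp upstream of mRpS18B and 256 bp from Kua.

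Among the mRpL genes, 6 of 47 (12.8%, 4.83 to 25.7%) had an IDR promoter peak, an interval that overlaps widely with that of the mRpS genes. The strongest was at mRpL41, of a mitochondrial family, with a pooled signal of 1738, 978 in replicate 1 and 763 in replicate 2, in chr2R:15217577-15217949. Its summit was intergenic, 134 bp upstream of mRpL41, and the nearest other TSS, of CG8079, was 628 bp away. It was the only one of the 12 genes with no other gene's TSS within 500 bp of the strongest summit. At mRpL23, the signal was 843, with 484 and 357 in the replicates, in chr3L:2373448-2373778. The summit lay 46 bp downstream of an mRpL23 TSS, within its 5' UTR, and 96 bp from CG9004, a head-to-head neighbour whose nearest TSS is 24 bp from one of mRpL23. It was the only IDR summit of the set downstream of the gene's nearest TSS.

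At mRpL3, the counterpart of bacterial L3, an interval of chrX:15760622-15761199 held a pair of IDR summits in the 515 bp between mRpL3 and Graf. The stronger had a pooled signal of 912, with 543 and 378 in replicates 1 and 2, and lay 402 bp from mRpL3 and 113 bp from Graf. The weaker had 488, with 244 and 175 in the replicates, and lay 201 bp from mRpL3 and 314 bp from Graf. The stronger summit lay toward Graf and the weaker near the middle of the region.

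The last 3 mRpL genes with an IDR peak were all head to head with a neighbour. At mRpL24 the pooled signal was 398, with 215 and 184 in the replicates, in chr2L:4945378-4945584, 112 bp from mRpL24 and 106 bp from betaggt-I, a subunit gene of a prenyl transferase. At mRpL20 it was 260, with 158 and 107, in chr3L:13018042-13018251, 295 bp from mRpL20 and 104 bp from Icmt, a methyltransferase gene that acts on prenylated proteins. At mRpL27 it was 227, with 142 and 68.8, in chr2L:4459551-4459974, 34 bp from CG15435 within its 5' UTR and 125 bp from mRpL27. The mRpL27 peak was the weakest of the 12 in replicate 2, where it ranked 5321.

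**Figure D2:**
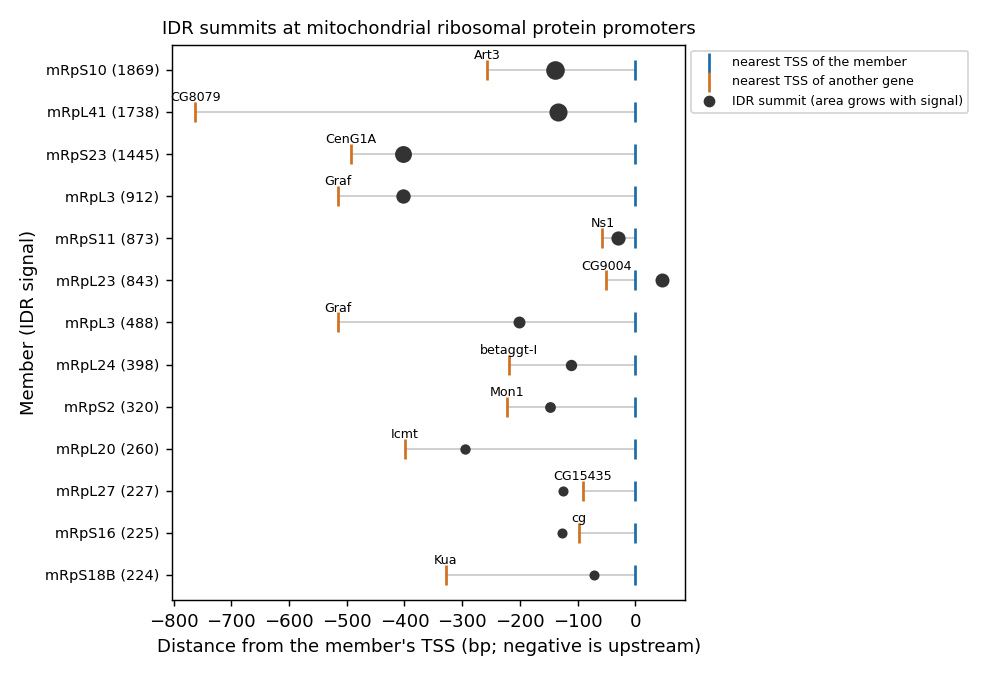
Position of the 13 IDR promoter summits of the 12 genes, in bp from the gene's own nearest TSS (blue), with the nearest TSS of another gene (orange) and the area of each point growing with signal. The gap between the TSSs was 57 bp at mRpS11 and 762 bp at mRpL41, and 1 summit, at mRpL23, lies downstream of the gene's TSS.

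At most of these genes the strongest IDR summit lay nearer to a neighbour's TSS, in part by a few bp only, as at mRpS11 and mRpL24. The strongest IDR summit was nearer to the gene's own TSS than to any other gene's at 3 of the 12 genes (25%, 5.49 to 57.2%), namely mRpL41, mRpL23 and mRpS18B, against 74.2% of all genes with an IDR promoter peak. Since so many of the set have a close neighbour, genes with one are the nearer comparison. There the summit was nearest to the gene itself at 2 of 10 mitochondrial ribosomal protein genes (20.0%, 2.52 to 55.6%), against 52.7% of all 1220 genes with an IDR peak and a neighbouring TSS, a background inside the interval. The 2375 genes with an IDR peak had 1817 distinct strongest summits, so in the background a summit can count for both genes of a pair. The 12 strongest summits of the set are distinct, so these shares are not built alike. Counting the weaker mRpL3 summit, 4 of the 12 genes had an IDR summit nearest to themselves. The nearest gene was the same at the pooled summit and at both replicate summits in 11 of the 12, mRpS2 being the exception. Among the 47 genes with only weaker candidates, the strongest summit was nearest to the gene itself at 28 (59.6%, 44.3 to 73.6%), against 78.7% of all protein-coding genes with a candidate and no IDR peak. These groups differ in neighbours, since another gene's TSS lay within 500 bp of that summit at 76.6% of the 47 and 38.3% of the background. The comparison was not split by neighbouring TSS. A summit marks the place of highest signal, and which of the paired genes the binding acts on was not tested.

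The sequences around part of the IDR summits follow, and they were searched only for a fixed list of words. Shown are the 101 bp centred on the summit (dm6, on the strand of the mitochondrial ribosomal protein gene), shortened to 56 bp at mRpS11 and 30 bp at mRpL23, where untranslated leader sequence lies at or beside the summit. Summits nearest to the gene itself come first, in order of signal, then the 5 strongest nearest to a neighbour, and the mRpL41 summit is not shown. Capitals mark CAGGTG, the Snail-family core, CAAGTG, an E-box like it, or GAGAGA, a repeat bound by GAGA factor, on either strand, so that CACCTG is CAGGTG read on the other strand.
mRpL23 (chr3L:2373618-2373647, minus strand): gatattattttttaaaagtggtaaaagtgt
mRpL3, weaker summit (chrX:15760997-15761097, plus strand): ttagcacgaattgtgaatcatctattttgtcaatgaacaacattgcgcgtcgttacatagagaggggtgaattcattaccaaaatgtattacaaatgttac
mRpS18B (chr2L:20097275-20097375, minus strand): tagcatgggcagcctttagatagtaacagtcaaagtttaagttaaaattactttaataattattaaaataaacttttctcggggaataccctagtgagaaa
mRpS10 (chr3R:15229476-15229576, plus strand): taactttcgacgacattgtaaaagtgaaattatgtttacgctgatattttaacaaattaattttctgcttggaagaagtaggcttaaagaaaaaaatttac
mRpS23 (chr2L:13835424-13835524, minus strand): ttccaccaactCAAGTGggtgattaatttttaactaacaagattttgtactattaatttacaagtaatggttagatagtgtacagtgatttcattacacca
mRpL3, stronger summit (chrX:15760796-15760896, plus strand): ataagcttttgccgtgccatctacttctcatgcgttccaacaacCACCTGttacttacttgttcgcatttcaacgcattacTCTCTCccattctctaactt
mRpS11 (chr3R:17072676-17072731, plus strand): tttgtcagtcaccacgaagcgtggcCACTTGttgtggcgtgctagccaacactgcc
mRpL24 (chr2L:4945423-4945523, minus strand): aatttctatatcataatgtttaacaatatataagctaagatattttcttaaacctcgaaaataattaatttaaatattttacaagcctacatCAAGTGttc

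The share of these summits with the Snail-family core lay near the background. CAGGTG stood within 50 bp of 1 of the 13 IDR summits (7.69%, 0.195 to 36%), the stronger mRpL3 summit printed above, against 9.70% of all 2072 IDR promoter peaks. Among pooled promoter candidates of any strength, it stood near 4 of 78 (5.13%) at mitochondrial ribosomal protein genes and 5.94% of 9122 at all protein-coding genes. The other 3 of these were at mRpL45 (signal 49.8), mRpL50 (49.0) and mRpS18A (55.6), all far below the IDR threshold. CAAGTG stood near 3 of the 13 IDR summits (23.1%, 5.04 to 53.8%), at mRpL24, mRpS11 and mRpS23, against 9.99% of all IDR promoter peaks. No IDR summit of the set had TATCGATA, the site of the promoter factor Dref, within 50 bp, 0 of 13 with an exact interval of 0 to 24.7%, against 2.56% of all IDR promoter peaks.

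Content of G and C was low at most of the summits. Over the 101 bp, GC content had a median of 26.7% (15.8 to 50.5%) at the 13 IDR summits, against 41.6% at all IDR promoter peaks. GC content was under 30% at 9 of the 13 (69.2%, 38.6 to 90.9%), against 23.7% of all IDR promoter peaks. The lowest value, 15.8%, was at mRpL20 and the highest, 50.5%, at mRpS11. The mRpS16 summit (49.5%) and the stronger mRpL3 summit (42.6%) also lay above the median of all IDR promoter peaks. The strongest summit was intergenic at 9 of the 12 genes (75%, 42.8 to 94.5%), against 42.0% of all genes with an IDR promoter peak. Over the 78 pooled candidates of the set the median was 38.6%, against 43.6% at all pooled promoter candidates, so the gap was widest among the strong peaks.

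The strong peaks recurred in both replicates, which their choice by agreement between the replicates largely fixed, and the weak ones less often. Both replicates held a candidate within 100 bp of the strongest summit at all 12 genes with an IDR peak, against 95.2% of all genes with one, and at 24 of the 47 genes with weaker candidates (51.1%, 36.1 to 65.9%), against 52.0% of all protein-coding genes with weaker candidates, so the set lay at the background. At mRpL40 (signal 45.6) it was matched in neither. Replicate 2 over replicate 1, on the log2 scale, had a median of −0.30 over the 36 genes matched in both (SD 0.73, −1.59 to 1.15), against 0.08 over 4907 protein-coding genes (SD 0.66). Replicate 2 was the lower at 23 of the 36 (63.9%, 46.2 to 79.2%), against 44.7% of the 4907. The median log2 ratio was −0.33 at the 12 genes with an IDR peak, against 0.02 over 2261 such genes matched in both replicates. Replicate 2 was the lower at 9 of these 12 (75%, 42.8 to 94.5%), against 49.0% of all such genes, inside the interval. The exceptions were mRpS23, where the replicates were nearly equal, mRpS16 (0.71) and mRpS18B (0.48). The caller's scale and the unknown depths enter these ratios. The gaps between medians are smaller than the SD over genes, which is the spread of single genes and not the error of a median.

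Over all IDR promoter peaks the replicate ratio was lower where GC content was low, while within the set the medians of both classes were close. Among IDR promoter peaks with GC content under 30%, the median log2 ratio was −0.36 at the 9 of the set and −0.27 at all 462 matched in both replicates. Among those with 30% or more it was −0.39 at the 4 of the set and 0.21 at all 1502. These 4 ran from −0.52 to 0.71 (SD 0.58) and include both mRpL3 summits, so their median rests on few genes. The part of base content in the ratios was not tested.

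**Figure D3:**
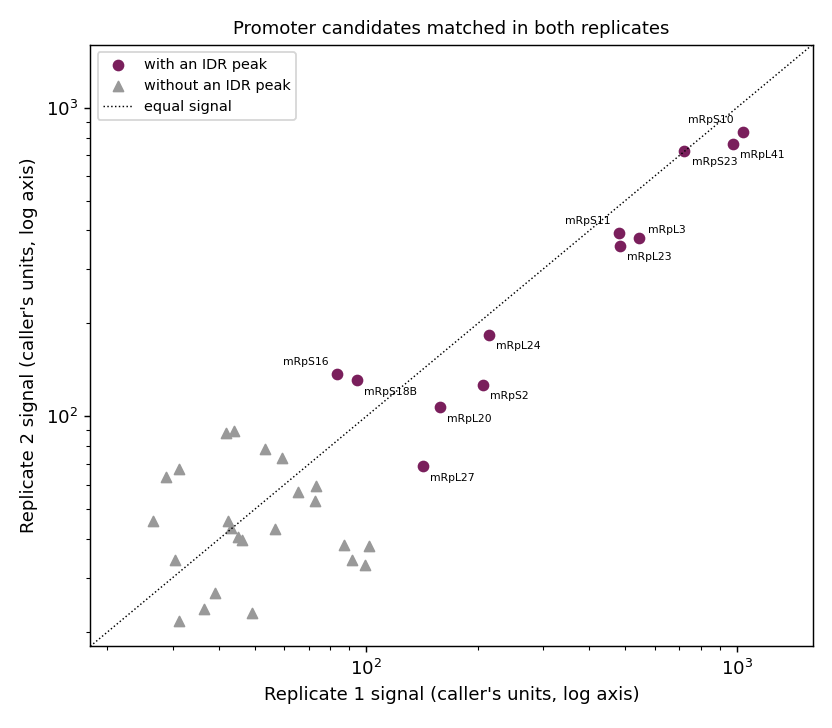
Replicate 2 against replicate 1 signal (caller's units, log axes) at the strongest promoter candidate of the 36 mitochondrial ribosomal protein genes matched in both replicates, with the dotted line at equal signal. The 12 genes with an IDR peak (circles) run from 83.6 at mRpS16 to 1037 at mRpS10 in replicate 1. Of them 9 lie below the line (75%, 42.8 to 94.5%), against 49.0% of all genes with an IDR peak matched in both replicates.

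Just under the IDR threshold the replicates were unequal at some genes and closer at others. The pooled signal at mRpS21 was 140.2, with 102 in replicate 1 and 37.9 in replicate 2, and its summit lay 81 bp from Droj2, a chaperone gene, and 378 bp from mRpS21. At mRpL37 it was 138, with 99.5 and 33.1 in the replicates, on a summit 94 bp from mRpL37. At mRpL4 it was 136, with 53.4 and 78.5, 103 bp from mRpL4, which has no neighbouring TSS within 500 bp. At mRpL48 it was 132, with 44.0 and 89.4, on a summit 21 bp from mRpL48 and 20 bp from CG17660. These are near misses by pooled signal, higher in replicate 1 in the first 2 and in replicate 2 in the others. At mRpL4 the log2 ratio of 0.55 was below the SD over all protein-coding genes (0.66). The replicates were closer at mRpL39 (pooled signal 129, with 59.1 and 73.2). Unequal replicates also occurred above the threshold, as at mRpL27 (log2 ratio −1.04). The 4105 strongest candidates of replicate 1 alone, as many as there were IDR peaks, reached 19 of the 73 promoters (26.0%), against 17.3% of all protein-coding genes. They included all 12 IDR genes and added mRpL11, mRpL18, mRpL37, mRpL44, mRpS7, mRpS21 and mRpS26. The same number from replicate 2 alone reached 13 (17.8%), against 17.0% of all protein-coding genes, adding mRpL47 and mRpL48 and losing mRpL27.

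At 14 genes the promoter held no pooled candidate. They were mRpL9, mRpL13, mRpL21, mRpL30, mRpL36, mRpL38, mRpL46, mRpS5, mRpS9, mRpS25, mRpS30, mRpS33, mRpS34 and mRpS35. Of these, 8 had no candidate in either replicate list, and 6 had a weak one in a single list. The highest of the 6 were at mRpL21, with 35.8 in replicate 1, and mRpS9, with 32.0 in replicate 2. A neighbouring TSS was lacking at 8 of the 14, and a promoter candidate was present at 11 of the 19 genes without a neighbour (57.9%) and 48 of the 54 with one (88.9%), against 43.9% and 74.8% of all protein-coding genes in the same classes. Absence from these lists means a signal below the weakest of 30000 candidates, which does not show absence of binding.

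By origin of the protein, IDR peaks were counted more often at families with a bacterial counterpart. With mRpL numbers up to 36 and mRpS numbers up to 21 taken as such families, 10 of 42 such genes had an IDR peak (23.8%, 12.1 to 39.5%). Of the 31 genes of mitochondrial families, 2 did (6.45%, 0.791 to 21.4%), and these were mRpL41 and mRpS23, among the 3 strongest peaks of all. Moving mRpL47 and mRpS24, which have bacterial counterparts under other numbers, gave 10 of 44 and 2 of 29. The intervals overlap, and the background was 17.0% of all protein-coding genes. By chromosome, 5 of the 12 genes on chromosome 2L had an IDR peak (41.7%, 15.2 to 72.3%), against 17.6% of all protein-coding genes there, a share inside the interval, and chromosomes 2R, 3L, 3R and X held 1 or 2 each.

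The palindromic E-box CAGCTG was frequent in these promoters. This word was among 13 words searched for on both strands from 250 bp upstream to 50 bp downstream of the canonical TSS, and it was singled out after its share had been seen. It stood in 40 of the 73 promoters (54.8%, 42.7 to 66.5%), against 17.9% of all protein-coding genes. The share was 55.6% at the 54 genes with a neighbouring TSS, against 24.3% of all protein-coding genes with one, and 52.6% at the 19 without, against 15.1%. It was centred within 50 bp of the TSS at 34 of the 73 (46.6%, 34.8 to 58.6%), against 9.58% of all protein-coding genes. Its most frequent 10-base contexts over all promoters, AACAGCTGAT and AACAGCTGTT, together stood in 18 promoters (24.7%, 15.3 to 36.1%), against 3.49% of all protein-coding genes. Other genes of mitochondrial gene expression had CAGCTG at 18 of 37 (48.6%), respiratory chain genes at 23 of 88 (26.1%) and cytoplasmic ribosomal protein genes at 9 of 92 (9.78%).

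**Figure D4:**
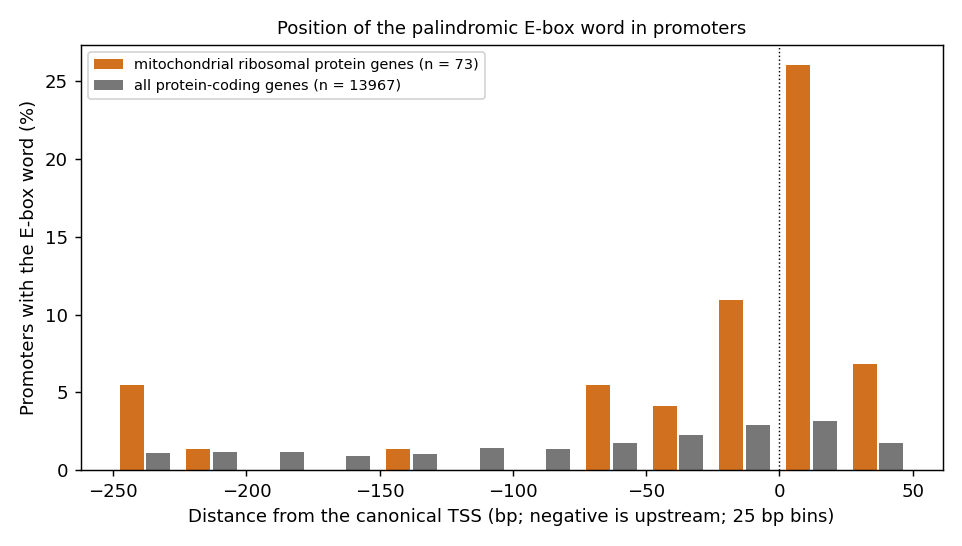
Share of promoters (%) with the palindromic E-box word in each 25 bp bin from 250 bp upstream to 50 bp downstream of the canonical TSS, for the 73 mitochondrial ribosomal protein genes (orange) and the 13967 protein-coding genes with a canonical TSS (grey). In the bin from 0 to 25 bp downstream the share was 26.0% for the set and 3.15% for all genes.

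The 30 bp around the copy nearest to the TSS are given (dm6, on the strand of the gene), with CAGCTG in capitals, for 4 genes with an IDR peak, then for 4 with no pooled candidate, so that the word can be compared between them. Of these last, mRpS25 had a weak candidate (20.5) in replicate 2.
mRpL23 (chr3L:2373715-2373744, minus strand): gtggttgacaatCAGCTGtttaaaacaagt
mRpL24 (chr2L:4945324-4945353, minus strand): ttcagttctcaaCAGCTGattgcaagccgc
mRpS2 (chr2L:4850413-4850442, minus strand): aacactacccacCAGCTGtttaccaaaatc
mRpS18B (chr2L:20097216-20097245, minus strand): tgtatcggaaaaCAGCTGatccgccggctc
mRpL46 (chr3L:1777425-1777454, plus strand): tgtgccgcaaatCAGCTGttccggctctgg
mRpS25 (chrX:14582959-14582988, minus strand): tagccgaccgatCAGCTGttcgcattacac
mRpS33 (chr3R:16436566-16436595, minus strand): gcacttggaaatCAGCTGtcgcttgttttt
mRpS35 (chr3L:2780875-2780904, plus strand): agtttctgtaaaCAGCTGattgcttgctat

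Within the set, Kah signal was no higher at genes with this word. An IDR peak was present at 5 of the 40 genes with CAGCTG (12.5%, 4.19 to 26.8%) and 7 of the 33 without (21.2%, 8.98 to 38.9%), against 23.5% of all protein-coding genes with the word and 15.6% of those without. The median strongest candidate signal was 87.1 with the word (n = 32) and 102 without (n = 27), against 114 and 97.6 over all protein-coding genes. No IDR summit of the set had CAGCTG within 50 bp (0 of 13, 0 to 24.7%), against 7.14% of all IDR promoter peaks. Among pooled promoter candidates of any strength, 12 of 78 at the set had it within 50 bp (15.4%, 8.21 to 25.3%), against 7.36% of all 9122. The median distance from the strongest candidate summit to the nearest promoter CAGCTG was 111.5 bp, and at 8 of 32 genes it was 50 bp or less.

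Of the other words, TATCGATA and the ATCGAT within it had shares whose intervals lay above the share of all promoters. TATCGATA stood in 15 of the 73 (20.5%, 12 to 31.6%), against 8.94% of all protein-coding genes, and ATCGAT in 27 (37.0%, 26.0 to 49.1%), against 22.7%. Cytoplasmic ribosomal protein genes had higher shares, 30.4% and 42.4% of 92, and respiratory chain genes lower ones, 9.09% and 28.4% of 88. These shares were not split by neighbouring TSS. Among the 12 genes with an IDR peak, TATCGATA stood in 4 promoters (33.3%, 9.92 to 65.1%), against 8.94% of all protein-coding genes. These were mRpS23, mRpL3, mRpL20 and mRpS18B, with the word 196, 403, 288 and 71 bp from the strongest summit. The search reached 250 bp upstream of the TSS. The summits of mRpS23 and mRpL3 (402 bp upstream) and mRpL20 (295 bp) lay beyond it, which limits how near a match could be. CAGGTG stood in 6 of the 73 promoters (8.22%, 3.08 to 17.0%), against 9.36% of all protein-coding genes. GGTCACACT, a core promoter word that contains GTCACA, stood in 8 (11.0%, 4.85 to 20.5%), against 5.86%. These matches are letters in the reference sequence and say nothing of which factors bind there.

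IDR peaks were far fewer than at the genes of the cytoplasmic ribosome. An IDR promoter peak was present at 12 of 73 mitochondrial ribosomal protein genes (16.4%, 8.79 to 27.0%) and at 68 of 92 cytoplasmic ribosomal protein genes (73.9%, 63.7 to 82.5%), intervals that do not meet. The mitochondrial set had a median signal of 95.5 and a median distance of 125 bp from the strongest summit to the gene's own TSS, against 263 and 20 bp for the cytoplasmic set. Among the cytoplasmic genes the share was high with a neighbouring TSS (29 of 37) and without one (39 of 55). Respiratory chain and ATP synthase genes had an IDR peak at 12 of 88 (13.6%, 7.25 to 22.6%), 11 of them among the 41 with a neighbour. Of 37 other genes of mitochondrial translation and gene expression, 4 had one (10.8%, 3.03 to 25.4%). They were mTerf3 (369) and mTerf5 (324), of the mitochondrial transcription termination factor family, and the mitochondrial tRNA synthetase genes PheRS-m (164) and TrpRS-m (159). Genes for ribosomal proteins that carry other names, tko (counterpart of S12, signal 57.7) and bonsai (S15, 79.4), had candidates below the threshold.

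**Figure D5:**
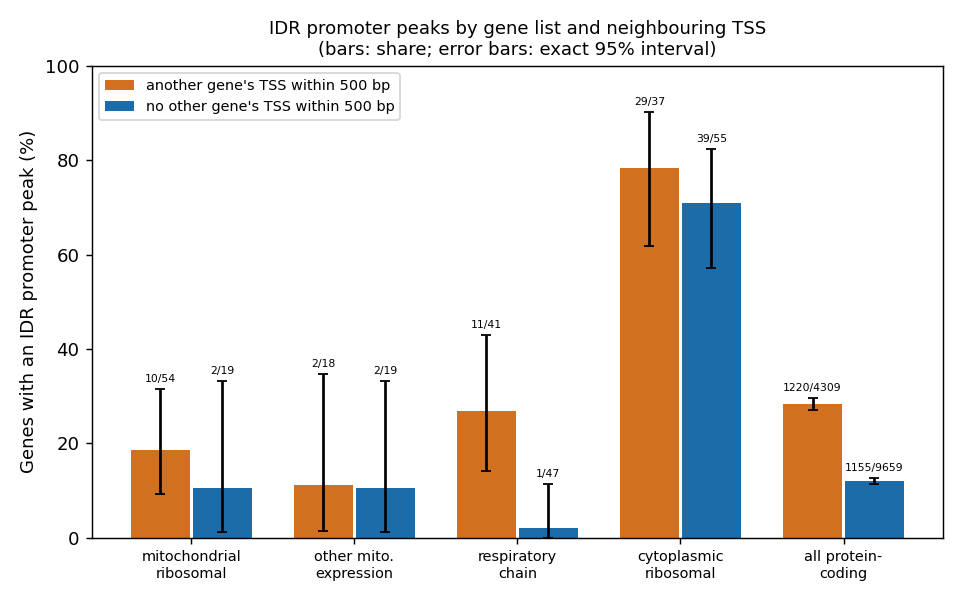
Share of genes with an IDR promoter peak (%), with exact 95% intervals and counts above the bars, for mitochondrial ribosomal protein genes, 3 other gene lists and all protein-coding genes, split by whether another gene's TSS lies within 500 bp. The share at mitochondrial ribosomal protein genes was 18.5% with a neighbour and 10.5% without, against 28.3% and 12% of all protein-coding genes. The genes with a peak and no neighbour were mRpL41 and mRpL3, whose stronger summit lay 113 bp from Graf.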

How the data were processed

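ChIP-seq of GFP-tagged Kah in 2 biological replicates was analysed from 4 deposited narrowPeak lists. Per the deposited file listing, the authors called candidates for each replicate and for the replicates pooled, and took the IDR list from these. Peak signal is the deposited value of the authors' caller, whose scaling is not stated. The deposited −log10 q was not used to rank peaks. For the aligner, the caller and their versions, the sources used here give no name. The IDR peaks are the pooled candidates of highest signal and were chosen by agreement between the replicates, so their recurrence in the replicates is no independent check. The labels call the replicates biological and say no more of their source.

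Coordinates are 1-based in dm6 (per the labels), genes come from Ensembl release 115 and sequence from the RefSeq Release 6 assembly, whose chromosome ends no peak passed. Candidates of different lists matched within 100 bp. Words were searched within 50 bp of the summit and from 250 bp before to 50 bp after the canonical TSS, on both strands. The 13 words were the Snail-family core CAGGTG with its variant CAGGTA, the E-boxes CAAGTG and CACGTG and CAGCTG, the Dref site TATCGATA and its inner part ATCGAT, the core promoter words GGTCACACT (which holds GTCACA) and CATCNCTA, the repeat GAGAGA, the TATA box TATAAA and the palindrome GCGCATGC. Counts, medians and exact 95% intervals were computed with Python 3.11.15, numpy 2.4.6, pandas 2.3.3 and scipy 1.17.1. The assignment of summits to TSSs and the word search were tested on planted summits and words. With 1 group there was no test between samples. The gene set, the comparison lists and the words were chosen with earlier results of these data known. The comparison lists were built from symbols (RpL, RpS and RpLP for the cytoplasmic ribosome).

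Named in full were the 12 genes of highest pooled promoter signal, which are all those with an IDR peak, the genes next to the threshold, those with CAGGTG near an IDR summit and, by name, those without a candidate. Alternatives covered promoter windows of 250 and 1000 bp, canonical TSSs, neighbours of any gene type, the stronger IDR peaks, each replicate alone, peak intervals over the TSS, and other motif and matching distances.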

Additional observations from a re-analysis of the deposited data

How the results depend on the processing

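The number of mitochondrial ribosomal protein genes with an IDR promoter peak was 12 of 73 as reported. It was 10 and 13 with promoter windows of 250 and 1000 bp, 12 with canonical TSSs and 9 with the stronger IDR peaks. Of all 13968 protein-coding genes, 1877, 2843, 2034 and 1356 had a peak at these settings, against 2375 as reported. When the peak interval had to cover the TSS, 7 of the set had one, and 1477 of all protein-coding genes. In a further setting, 1 replicate was left out and as many of the strongest candidates of the other stood in place of IDR peaks. The set then had 13 (replicate 2 alone) and 19 (replicate 1 alone), against 2370 and 2419 of all protein-coding genes. The 19, from replicate 1 alone, included the same 12 genes, and the 13 from replicate 2 alone shared 11 of them. The median promoter signal, 95.5 in the pooled list, ranged from 47.4 to 58.5 in the replicate lists, whose signals are on the lists' own scale. Genes with a neighbouring TSS numbered 26 within 250 bp, against 54 within 500 bp, and 60 within 1000 bp. Genes with a pooled candidate (54 to 62), with an IDR summit nearest to themselves (3 to 6), with a candidate in both replicates (37 to 55) and with CAGGTG near an IDR summit (1 throughout) moved by 1.5-fold at most, and the median replicate ratio was −0.22 with matching within 50 or 250 bp. No paired analysis was possible because the replicates form 1 group. Without read counts, the depth behind a peak is unknown, and 12 genes leave wide intervals on every share among them.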
